A study of Mus musculus with 2 samples.

Results

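The genes described here are the fatty acid elongases and desaturases of the mouse liver: *Elovl1*, *Elovl2*, *Elovl3*, *Elovl5*, *Elovl6* and *Elovl7*, *Fads1* and *Fads2*, and *Scd2*. They are 9 of the 53342 rows of each liver file, 6 of them elongases and 3 desaturases, found by their symbol in both files. The list was selected on these same libraries, with the level of each gene in both and the difference between them in view, so the levels and differences below are a description and carry no test. Each file gives, for a gene symbol, the log2 of a read count that the authors normalized between libraries, and this was returned to the linear scale, where a value is called normalized reads.

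The study sequenced liver mRNA of 1 control and 1 iFIRKO sample. The iFIRKO genotype is Adipoq-CreERT2; Insr flox/flox, in which a Cre recombinase switched on by tamoxifen is driven by the adiponectin promoter and removes the insulin receptor gene from adipocytes, so the liver itself is not the tissue targeted. The labels give the control as WT, whereas the study's methods describe its control mice as carrying the floxed receptor without Cre. All mice were male, were given tamoxifen at 100 mg/kg on 5 days at 7 weeks of age, and were sampled 3 days after the last dose. The sources used here do not say whether a library came from 1 mouse or from a pool. With 1 library per genotype there is no replicate check, and every difference below is between 2 libraries. The level of *Insr*, the insulin receptor gene, was 4246 normalized reads in control liver against 3692 in iFIRKO liver (log2 fold change -0.20).

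Fatty acids made by fatty acid synthase, or taken up from the diet, are lengthened in the endoplasmic reticulum by a cycle that adds a unit of carbon from malonyl-CoA at each turn. An elongase of the ELOVL family carries out the first, condensing step, and its choice of substrate sets which acids are lengthened. ELOVL6 lengthens palmitate and palmitoleate, ELOVL1, ELOVL3 and ELOVL7 act mainly on saturated and monounsaturated chains, and ELOVL2 and ELOVL5 act mainly on polyunsaturated ones. Desaturases insert double bonds. SCD1 and SCD2 place the first one in a saturated chain, whereas FADS1 and FADS2 desaturate the essential fatty acids on the way to arachidonic acid and docosahexaenoic acid. In liver, many of these genes are known targets of SREBP1c, LXR and PPAR-alpha, which respond to insulin, oxysterols and fatty acids.

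The elongases share a short histidine-rich stretch, HXXHH, at the catalytic site. The bases that encode it are shown so that the members can be compared there. Each line holds 45 bases of coding sequence from GENCODE M21 on GRCm38, read 5′ to 3′ on the coding strand and lying within 1 exon, with the 15 bases of the stretch in capitals.
Elovl3: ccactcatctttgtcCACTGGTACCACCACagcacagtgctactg
Elovl6: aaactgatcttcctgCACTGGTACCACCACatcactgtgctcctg
Elovl5: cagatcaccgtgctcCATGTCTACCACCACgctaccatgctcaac
Elovl2: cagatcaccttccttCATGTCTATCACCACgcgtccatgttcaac
Elovl1: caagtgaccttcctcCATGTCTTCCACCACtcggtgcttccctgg
Elovl7: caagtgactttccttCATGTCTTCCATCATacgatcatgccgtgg
The *Elovl3* stretch lies at chr19:46134407-46134451 on the plus strand and that of *Elovl6* at chr3:129633092-129633136 on the plus strand. Those of *Elovl5* (chr9:77976835-77976879), *Elovl1* (chr4:118431439-118431483) and *Elovl7* (chr13:108274316-108274360) are on the plus strand, and that of *Elovl2* (chr13:41189986-41190030) is on the minus strand. *Elovl3* and *Elovl6* had the same base at 15 of 15 positions of the capitals. *Elovl3* matched *Elovl5* at 11 of 15, *Elovl1* and *Elovl2* at 10 of 15 each, and *Elovl7* at 8 of 15. Over the whole aligned coding sequence the difference was small, with 64.9% identity between *Elovl3* and *Elovl6* and 66.2% between *Elovl3* and *Elovl5*. The closest elongase pair among the members over that length was *Elovl2* and *Elovl5*, at 68.1%.

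RefSeq promoters on GRCm38.p6 were in the table used for 6 of the 9 members. The promoters of *Elovl6*, which was higher in iFIRKO, and *Elovl5*, which had the largest level among the elongases, are shown up to the base before the first annotated start. They cover chr3:129532136-129532354 and chr9:77917115-77917363, both on the plus strand, and the capitals mark matches to the motifs named after them.
Elovl6: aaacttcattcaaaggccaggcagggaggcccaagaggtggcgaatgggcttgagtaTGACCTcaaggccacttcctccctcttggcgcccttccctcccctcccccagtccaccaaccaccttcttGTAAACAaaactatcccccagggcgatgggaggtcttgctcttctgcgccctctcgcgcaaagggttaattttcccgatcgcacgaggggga
Elovl5: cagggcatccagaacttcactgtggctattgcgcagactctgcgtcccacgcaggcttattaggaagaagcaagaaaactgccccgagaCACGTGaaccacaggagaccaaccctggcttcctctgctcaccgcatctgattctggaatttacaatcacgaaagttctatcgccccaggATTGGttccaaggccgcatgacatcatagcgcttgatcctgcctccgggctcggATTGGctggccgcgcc
The motifs, searched on both strands over 250 bases before to 50 after the RefSeq start, were the sterol regulatory element core TCACNCCAC, the E-box CACGTG, the NF-Y box CCAAT, the GC box GGGCGG, the nuclear receptor half-site AGGTCA, the STAT5 site TTCNNNGAA and the FOXO site GTAAACA. In the *Elovl6* promoter, AGGTCA was found on the minus strand with its first printed base at -193 and GTAAACA on the plus strand at -123. Of 32851 promoters of that length, 16.3% held AGGTCA and 3.65% held GTAAACA. In the *Elovl5* promoter, CACGTG was found at -161 and CCAAT on the minus strand at -71 and -17. CACGTG was present in 7.15% and CCAAT in 37.4% of all promoters. The *Fads2* promoter held GGGCGG at -186 and none of the other letters, and GGGCGG was present in 35.7% of all promoters. *Elovl1*, *Elovl2* and *Elovl7* held GGGCGG 2 to 5 times in at least 1 of their promoters. *Elovl1* also held CCAAT at -35 in 1 promoter and AGGTCA, on the minus strand, at -95 in another. The matches in the *Elovl6* and *Elovl5* promoters did not overlap one another. TCACNCCAC, found in 1.24% of all promoters, and TTCNNNGAA, found in 8.3%, were in no promoter of these 6 members. A match describes the letters alone, and no binding was measured.

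The libraries held an estimated 42276584 reads on genes for the control and 41304952 for iFIRKO. The commonest value in a low window was taken as 1 read pair, at 1.987 normalized reads in the control and 2.013 in iFIRKO. The window left out values near 1, so that this value stands for a pair is an assumption. Only 44.6% and 44.8% of the low values were whole multiples of that value, so numbers of read pairs are estimates. Fold changes were computed from normalized reads, and values were rounded to whole read pairs for the intervals. A gene was counted where it had at least 41.8 normalized reads, which stands for a CPM (counts scaled to library size) of 1, in 1 or both libraries. The fold change was computed with a pseudocount of 4.18 normalized reads, so that of a low gene is understated. Intervals of fold changes are 95% exact Clopper-Pearson intervals and those of levels are 95% Poisson intervals, both on estimated read pairs. They cover counting error only, and compare these libraries and not the genotypes. Because the read pairs are estimates, the width of the intervals is approximate. A gene was called higher or lower past 1.5-fold, the study's own threshold, which is 0.585 on the log2 scale. In bulk liver, fewer cells of a type and less RNA per cell cannot be told apart.

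Of the 9 members, 8 were counted, and *Elovl7* was below the minimum in both libraries. *Elovl3* and *Elovl6* were called higher in iFIRKO and *Scd2* was called lower, and the other 5 counted members lay between the limits. Across all 13400 genes counted, 4.46% were called higher and 7.28% lower, and because the members were chosen with these differences known, nothing is read from their count against that background. The further gene lists below were also chosen with earlier results of these data known, so the same holds for their counts. Of the 8 counted members, 4 had a log2 fold change above 0 and 4 below. Their median was -0.0045, beside 0.0075 over all genes counted, whose quartiles were -0.19 and 0.17. The spread among the members ran from -0.63 for *Scd2* to 2.38 for *Elovl3*.

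**Figure D1:**
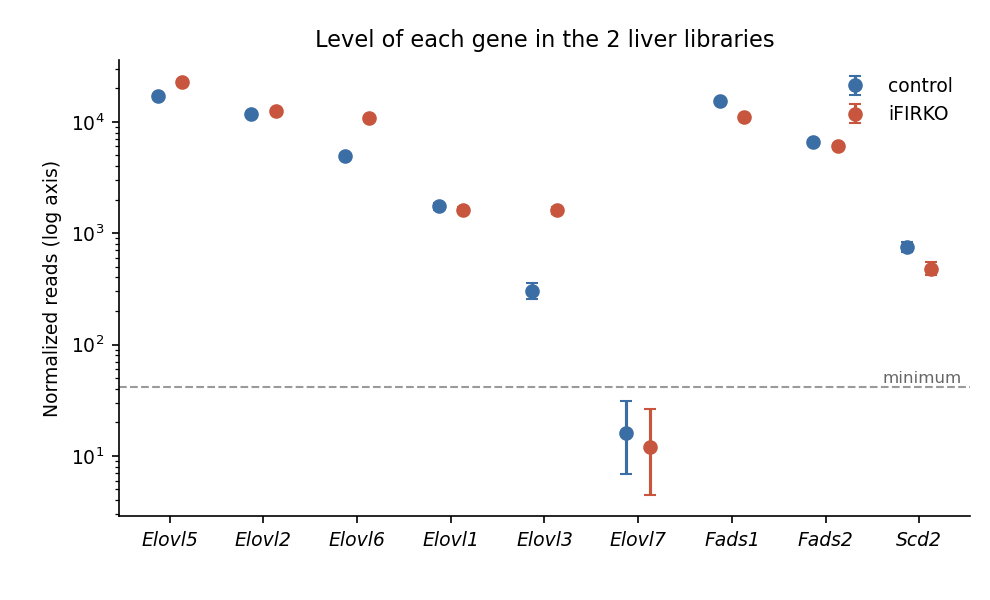
Normalized reads of each of the 9 genes (log axis) in the control library (blue) and the iFIRKO library (red); bars are 95% counting intervals and are often smaller than the point, and the dashed line is the minimum of 41.8 normalized reads. *Elovl3* and *Elovl6* show the widest upward gaps, and *Elovl7* lies below the line in both libraries.

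*Elovl3* differed most. This elongase is made in brown fat and sebaceous glands as well as in liver, where it is known to be higher in males and to follow the clock. Its level was 305 normalized reads in the control and 1606 in iFIRKO, from an estimated 153 and 797 read pairs. The log2 fold change was 2.38 (counting interval 2.15 to 2.66), or 5.21-fold. The intervals of the 2 levels, 258 to 356 in the control and 1495 to 1720 in iFIRKO, did not overlap. Ranked by log2 fold change, *Elovl3* was the 10th highest of the 13400 genes counted and the 4th highest of the 8380 genes with at least 10 CPM in 1 or both libraries.

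*Elovl6*, the elongase that turns the palmitate made by fatty acid synthase into stearate, stood at 4969 normalized reads in the control and 10702 in iFIRKO. The log2 fold change was 1.11, from 1.04 to 1.18, or 2.15-fold, and the 2 levels' counting intervals did not overlap. It was the 161st highest of the genes counted and the 57th of those with at least 10 CPM. *Elovl6* was therefore called from more than an order of magnitude more normalized reads than *Elovl3* in the control library, and its interval was correspondingly narrower. Per kilobase of transcript, the control levels of *Elovl6* and *Elovl3* were 835 and 162 normalized reads.

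*Elovl1*, the broadly expressed elongase of saturated very long chains that serve sphingolipids, gave 1738 normalized reads in the control and 1616 in iFIRKO. Its log2 fold change was -0.11 (-0.25 to 0.03), an interval that spans 0. The ratio of *Elovl3* to *Elovl1* within each library, on which a scaling of the whole library has no effect, went from 0.175 in the control to 0.994 in iFIRKO in normalized reads. That is a log2 difference of 2.50 (counting interval 2.22 to 2.79). *Elovl7*, the remaining elongase of this group, had 15.9 normalized reads in the control and 12.1 in iFIRKO, an estimated 8 and 6 read pairs. The interval of its log2 fold change, -0.30, ran from -2.20 to 1.32, and a difference of the size seen for *Elovl6* could not have been told from counting error at that depth.

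Among the elongases of polyunsaturated chains, neither gene passed the threshold. *Elovl5* gave 17189 normalized reads in the control and 22927 in iFIRKO, which is 0.42 on the log2 scale (0.38 to 0.46). The levels were separated by more than counting error, yet the whole interval lay below the log2 limit of 0.585. *Elovl2*, needed for the last lengthening steps towards docosahexaenoic acid, had 11783 normalized reads in the control and 12595 in iFIRKO. Its log2 fold change was 0.10, from 0.04 to 0.15. Within each library, the ratio of *Elovl2* to *Elovl5* in normalized reads was 0.686 in the control and 0.549 in iFIRKO, a log2 difference of -0.32 (-0.38 to -0.25). The ratio of *Elovl6* to *Elovl5* was 0.289 in the control and 0.467 in iFIRKO, a log2 difference of 0.69 from 0.61 to 0.77. Both ratios exceed counting error, so the members did not differ between the libraries by 1 common factor.

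**Figure D2:**
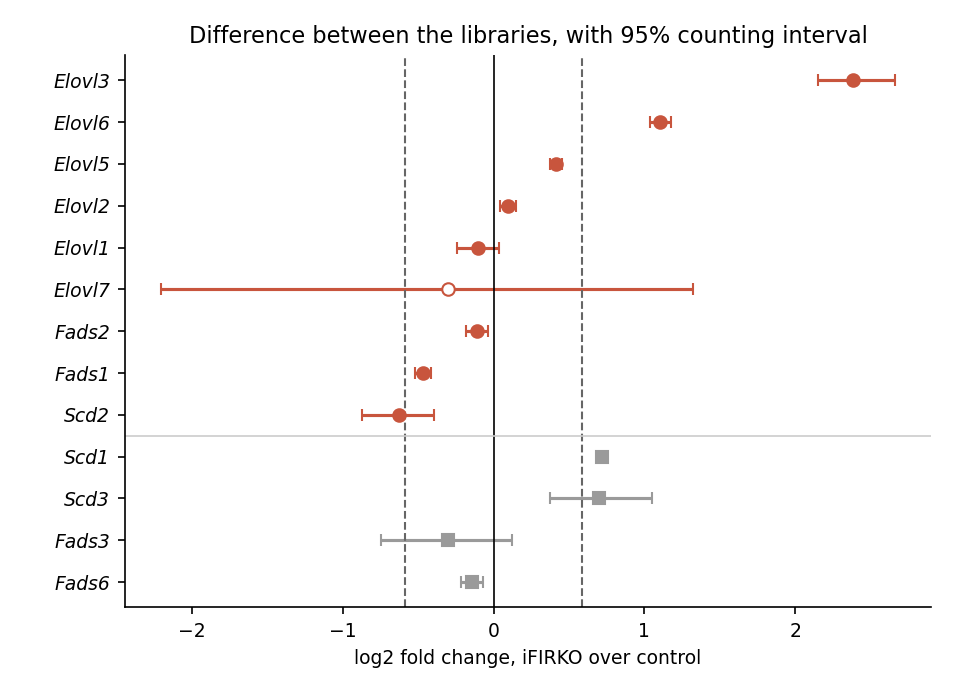
log2 fold change of iFIRKO over control (horizontal axis) for the 9 genes (red circles) and 4 further desaturases (grey squares), with 95% counting intervals; the open circle is *Elovl7*, below the minimum, and dashed lines mark 1.5-fold in either direction. *Elovl3* and *Elovl6* lie wholly beyond the upper line, and the interval of *Scd2* crosses the lower one.

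The desaturases among the members had values below 0. *Fads1*, which makes arachidonic acid from its direct precursor, gave 15307 normalized reads in the control and 11070 in iFIRKO. Its log2 fold change was -0.47 (-0.52 to -0.42), a 1.38-fold lower level that did not pass the threshold. *Fads2*, which acts first on linoleic and alpha-linolenic acid, had 6533 normalized reads in the control and 6061 in iFIRKO, or -0.11 on the log2 scale (-0.18 to -0.04). These neighbours lie on chromosome 19 in opposite orientation, *Fads1* at chr19:10182888-10196877 on the plus strand and *Fads2* at chr19:10062765-10101746 on the minus strand, with starts 81142 bp apart. In normalized reads their ratio, *Fads1* to *Fads2*, was 2.34 in the control library and 1.83 in iFIRKO, a log2 difference of -0.36 (-0.45 to -0.27). The ratio of *Elovl5* to *Fads2*, which catalyse successive steps on the same chains, was 2.63 in the control and 3.78 in iFIRKO, a log2 difference of 0.52 from 0.44 to 0.61.

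*Scd2*, a stearoyl-CoA desaturase best known from brain and from the liver of young mice, was called lower. Its level was 745 normalized reads in the control and 480.2 in iFIRKO, an estimated 375 and 239 read pairs. The log2 fold change was -0.63 (-0.87 to -0.39), or 1.55-fold lower, so the value lay just past the threshold and the interval reached back across it. *Scd2* was the 843rd lowest of the genes counted. Its relative *Scd1* is the main stearoyl-CoA desaturase of adult liver, with its start 114205 bp away on chromosome 19. *Scd1* went from 135299 normalized reads in the control to 223079 in iFIRKO (log2 fold change 0.72). The ratio of *Scd2* to *Scd1* in normalized reads was 0.00551 in the control library and 0.00215 in iFIRKO, a log2 difference of -1.35 (-1.59 to -1.12).

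Reads shared between paralogs bear on *Scd2* in particular. The coding sequences of *Scd1* and *Scd2* were 90.7% identical, and 4.01% of the 50-base stretches of the longest *Scd2* transcript also occurred in another gene, mainly *Scd1*, *Scd3* and *Scd4*. For stretches of 100 bases the share was 0.9%. *Elovl6* shared 4.4% of its 50-base stretches with other genes, among them the predicted gene *Gm11295*, and 0.97% of its 100-base ones. *Elovl2*, *Elovl3*, *Elovl5* and *Fads1* shared none at 50 bases. How the authors counted reads that match several genes was not given in the sources used here, so the *Scd2* level is uncertain beside the far higher one of *Scd1*. Exons of *Scd2* share 61 bp with the microRNA gene *Mir5114* on the same strand, where strand cannot tell reads apart. Exons of *Elovl1* overlap those of *Cdc20* on the opposite strand by 53 bp, those of *Elovl3* overlap *Pitx3* by 10 bp and those of *Elovl6* overlap the antisense gene *Gm35986* by 34 bp. The libraries were made with a stranded kit, but whether strand was used in counting is not given, so reads in those few bases cannot be assigned.

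**Figure D3:**
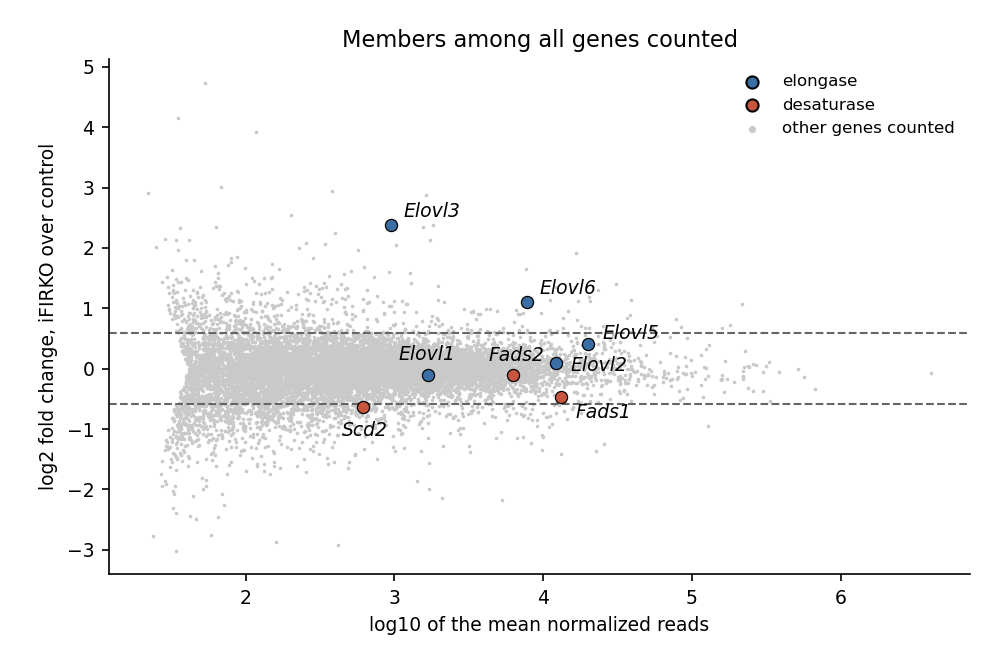
log2 fold change of iFIRKO over control (vertical axis) against the log10 of the mean normalized reads of both libraries (horizontal axis) for the 13400 genes counted (grey), with counted elongases in blue and desaturases in red; dashed lines mark 1.5-fold. *Elovl3* stands near the top at its level, and *Fads1* and *Scd2* lie close to the lower line.

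Levels of different genes were compared per kilobase of the longest annotated transcript. In the control library the order of the elongases was *Elovl5* with 6179 normalized reads per kb, *Elovl2* with 3068, *Elovl1* with 959.8, *Elovl6* with 835, *Elovl3* with 162 and *Elovl7* with 3.96. In the iFIRKO library it was *Elovl5* with 8241, *Elovl2* with 3280, *Elovl6* with 1798, *Elovl1* with 892, *Elovl3* with 854 and *Elovl7* with 3.01. *Elovl6* and *Elovl1* thus changed places. In the iFIRKO library the counting intervals of *Elovl1*, 832 to 957 per kb, and *Elovl3*, 795 to 914 per kb, overlapped, and those of all other neighbours in the order did not. The place of *Elovl6* rests on the transcript length used. With the mean length of all protein-coding transcripts it was ahead of *Elovl1* in the control library as well, at 10.2% of elongase reads per kb against 6.19%. In the iFIRKO library it was then also ahead of *Elovl2*, at 15.8% against 11.7%.

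As shares of all elongase reads per kb, *Elovl5* was 55.1% in the control and 54.7% in iFIRKO. The share of *Elovl2* was 27.4% in the control and 21.8% in iFIRKO, and that of *Elovl1* was 8.56% and 5.92%. The share of *Elovl6* was 7.45% in the control and 11.9% in iFIRKO, and that of *Elovl3* was 1.45% and 5.67%. The shares of *Elovl6* and *Elovl3* were thus larger in iFIRKO and those of *Elovl2* and *Elovl1* smaller, and *Elovl5* had the largest share in both libraries. The share of *Elovl5* was lower in iFIRKO by 0.44 percentage points here, but fell by 2.55 percentage points with the mean transcript length. The sum over the family per kb was higher in iFIRKO by 0.43 on the log2 scale, from 11208 to 15068 normalized reads per kb.

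Desaturase shares were taken over the *Scd* and *Fads* genes, and *Degs1* and *Degs2*, described below, were not included. Among these genes *Scd1* dominated, at 77.5% of reads per kb in the control library and 87.5% in iFIRKO. *Fads1* held 12.2% in the control and 6.06% in iFIRKO, *Fads2* held 5.74% and 3.65%, and *Scd2* held 0.378% and 0.167%. Without *Scd1*, the sum of the other *Scd* and *Fads* genes was lower in iFIRKO, at 8114 normalized reads per kb in the control and 6598 in iFIRKO. Within that remainder *Fads1* held 54.5% in the control and 48.5% in iFIRKO, *Fads2* held 25.6% and 29.2%, and *Scd2* held 1.68% and 1.33%. Shares within a family sum to 100, so a gain of 1 gene lowers the others without any change in their level.

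**Figure D4:**
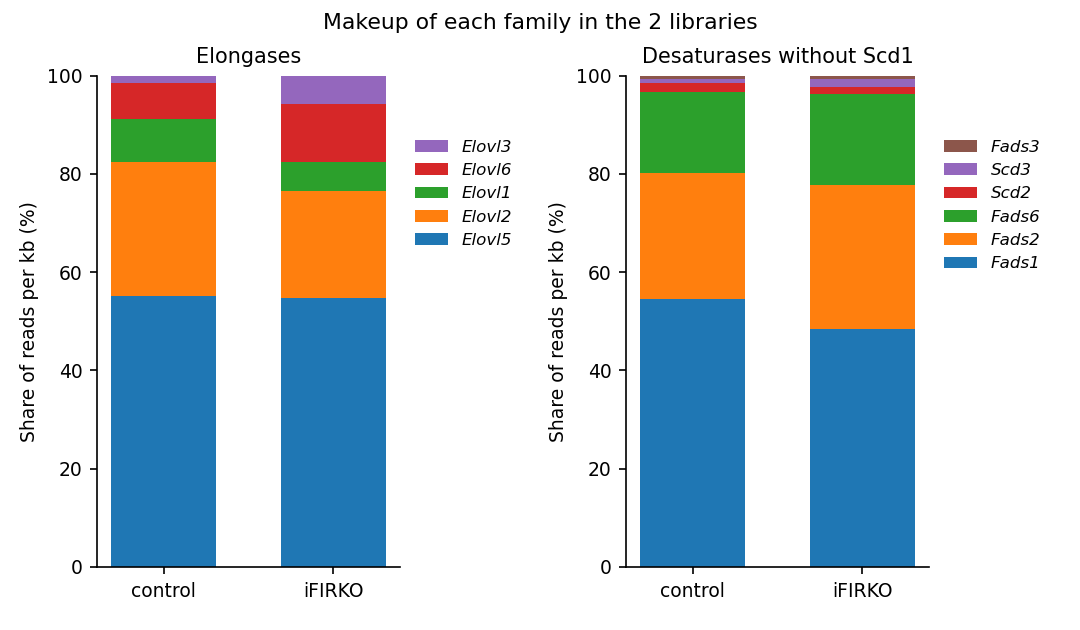
Share of each gene (%) in the normalized reads per kb, in the control and iFIRKO libraries. The left panel holds all elongases and the right one the *Scd* and *Fads* desaturases without *Scd1*. Genes under 0.1% in both libraries are not drawn. The *Elovl6* and *Elovl3* blocks are larger in iFIRKO, and the *Fads1* block is smaller.

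Of the 8 other members of these families, 5 were counted and 2 were called higher. *Scd3*, a stearoyl-CoA desaturase of skin, gave 242 normalized reads in the control and 396 in iFIRKO, 0.70 on the log2 scale (0.38 to 1.05), and it shares sequence with *Scd1*. *Fads3* had 205 and 166, -0.30 on the log2 scale (-0.75 to 0.12). *Fads6* had 6699 and 6075 and *Degs1*, the desaturase that completes ceramide, had 3481 and 3167, each with a log2 fold change of -0.14. *Elovl4*, the elongase of ultra-long chains in retina and skin, was listed at 0 in both libraries, and *Scd4* and *Degs2* were below the minimum. *Scd1* and *Scd3* therefore lay on the other side of 0 from *Scd2*.

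The enzymes that complete the elongation cycle showed 1 called gene. Of 7, 6 were counted, with a median log2 fold change of 0.05. *Hacd1*, a dehydratase of the cycle known from muscle, was called higher, with 259.8 normalized reads in the control and 418 in iFIRKO. The members of the cycle abundant in liver were close to 0. *Hsd17b12*, the reductase of the second step, had a log2 fold change of 0.15, *Hacd3* of 0.16, *Hacd2* of -0.05 and *Tecr*, the last reductase, of -0.07. Of the cytochrome b5 genes and their reductases, which pass electrons to the desaturases, 5 were counted and 0 were called. Their median was -0.14, and *Cyb5a*, the most abundant, had 39885 normalized reads in the control and 34017 in iFIRKO.

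Substrates for the cycle come from other enzymes. Of the 9 counted genes for acyl-CoA synthesis and malonyl-CoA supply, 3 were called higher and 0 lower, with a median log2 fold change of 0.29. *Me1*, malic enzyme, which supplies NADPH, had 6884 normalized reads in the control and 17594 in iFIRKO. *Fasn*, fatty acid synthase, had 41461 and 66890, and *Acaca*, the acetyl-CoA carboxylase that makes malonyl-CoA, had 5359 and 8350. Of the 8 genes of peroxisomal chain shortening, which trims very long and polyunsaturated acids, 2 were called higher, *Acaa1b* with a log2 fold change of 0.84 and *Scp2* with 0.82. Of 4 ceramide synthases counted, 0 were called, and *Cers2*, the most abundant, had a log2 fold change of 0.13.

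Of the 8 genes listed under acyl transfer to phospholipid, which are not all acyltransferases, 1 was called higher and 3 lower. *Mfsd2a*, the transporter of lysophospholipids that carry docosahexaenoic acid, gave 584.7 normalized reads in the control against 3076 in iFIRKO, a log2 difference of 2.39, close to the 2.38 of *Elovl3*. The 3 called lower were *Lpcat1*, *Lpcat2* and *Lpcat4*, with log2 fold changes of -0.72 (-1.32 to -0.19), -0.78 (-1.34 to -0.32) and -0.63. The interval of *Lpcat4*, from 23 and 14 read pairs, ran from -1.77 to 0.32 and spans 0. All 3 were low in this tissue, from 45.4 to 188 normalized reads in the control. *Lpcat3*, the main liver enzyme of this kind, had 3734 and 3246, a log2 fold change of -0.20.

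Among 16 known regulators of these genes, all counted, 1 was called higher and 0 lower. *Pparg*, the nuclear receptor of adipocytes that is low in normal liver, gave 358 normalized reads in the control and 677 in iFIRKO, 0.91 on the log2 scale (0.65 to 1.19). *Srebf1*, whose row does not separate the transcripts of SREBP1a and SREBP1c, had 12113 and 10720.5, a log2 fold change of -0.18. *Insig1* had a log2 fold change of -0.47, *Mlxipl*, which encodes ChREBP, of -0.44, *Insig2* of 0.27, *Ppara* of 0.11 and *Nr1h3*, which encodes LXR-alpha, of -0.01. These are RNA levels, and the processing or activity of the proteins was not measured. Of 8 counted PPAR-alpha targets outside the family, 4 were called higher, *Cyp4a14*, *Acot1*, *Plin2* and *Vnn1*, with a median over the list of 0.48. Over all genes counted, 4.46% were called higher. Of these 8 targets, 6 lay above 0 and 2 below. The most abundant of them, *Ehhadh*, was below 0, at -0.37 (-0.39 to -0.35). Of 9 targets of SREBP1c and LXR outside the family, *Gpam* was called higher and *Abcg1* and *Abcg8* lower, with a median of -0.43. The list joins targets of both factors, with 2 genes above 0 and 7 below, so its median does not stand for SREBP1c targets alone. Those above 0 were *Gpam*, at 0.67, and *Thrsp*, at 0.44. *Fasn*, *Acaca* and *Scd1*, each called higher, are not in this list.

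*Elovl3* is known to follow sex and the clock in liver, so its value is set beside both lists. Of 10 genes that are higher in the livers of male mice, 7 were called higher and 1 lower, with a median log2 fold change of 0.83. Over all genes counted, 4.46% were called higher and 7.28% lower. The list was chosen with earlier results of these data known, so its count carries no test. *Hsd3b5*, 1 of the 7 called higher, rested on an estimated 7 read pairs in the control and 25 in iFIRKO. *Cyp4a12b* had 84.9 normalized reads in the control and 679.5 in iFIRKO and *Cyp4a12a* had 386 and 2862, with log2 fold changes of 2.94 and 2.88. *Cyp7b1* was the one called lower, at -1.05. Of 14 clock genes, 4 lay above 0 and 10 below, with a median of -0.23. *Ciart* was called higher, at 1.29 (0.64 to 2.06). *Per3* and *Dbp* were called lower, at -1.10 (-1.51 to -0.74) and -1.02 (-2.34 to -0.09). *Dbp* had 49.2 normalized reads in the control and 22.1 in iFIRKO, an estimated 25 and 11 read pairs. The part of sex-biased expression or of the hour of sampling in the *Elovl3* difference was not tested, and the hour is not given in the sources used here.

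**Figure D5:**
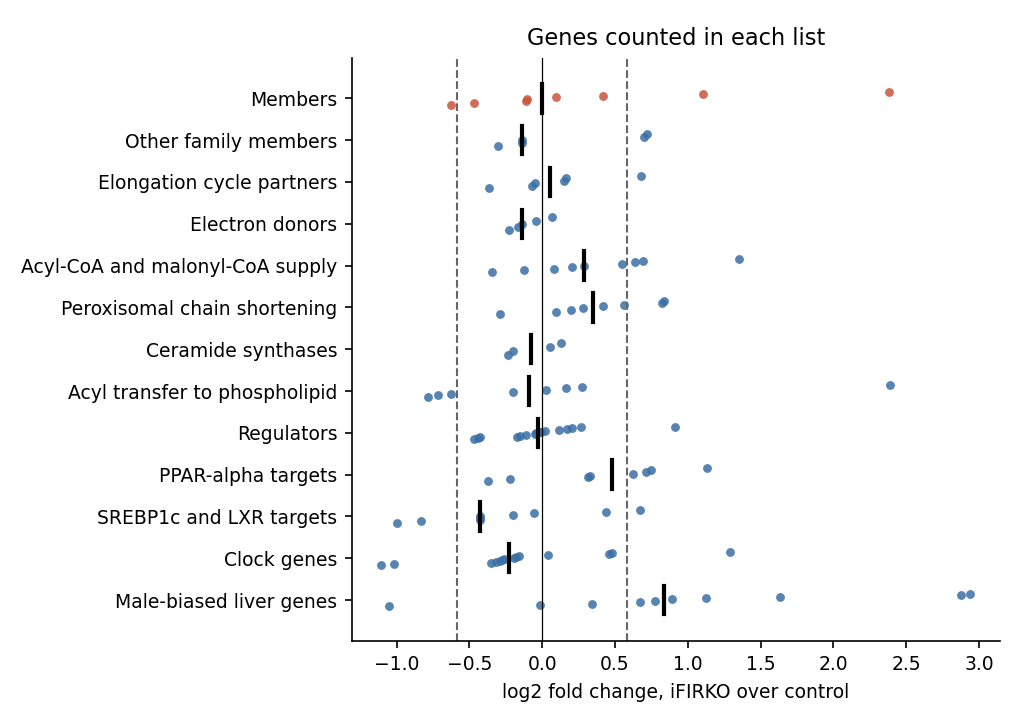
log2 fold change of iFIRKO over control (horizontal axis) for each counted gene of the 9 members (red) and of 12 further lists (blue); black bars are list medians and dashed lines mark 1.5-fold. The members spread widely around a median near 0, and the male-biased list has the highest median, 0.83.

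Markers of the liver's cell types were read for the tissue as a whole. Hepatocyte genes were abundant in both libraries, with 1 of 6, *Apoa1*, called lower. Brown fat also makes *Elovl3*. Of the markers of brown fat and adipocytes, *Lep*, *Cidea*, *Ucp1* and *Retn* were listed at 0 in both libraries, and *Adipoq* and *Plin1* were listed at 0 in the control and at 2.01 normalized reads, 1 read pair, in iFIRKO. *Cfd* was listed at 0 in the control and at 8.05 normalized reads, 4 read pairs, in iFIRKO. Of the 9 adipocyte markers, 2 were counted and 0 called, *Fabp4* with 470 and 469 normalized reads and *Lipe* with 804 and 666, which other liver cells also express. These 2 genes carried most of the list's sum of 1274 normalized reads in the control and 1147 in iFIRKO. Of the markers of sebaceous gland and skin, *Krt5*, *Dgat2l6* and *Mc5r* were listed at 0 in both libraries, and the 5 genes summed to 46.1 normalized reads in the control and 51.2 in iFIRKO. Beside the lower *Scd2* value, 5 of 8 Kupffer cell and macrophage markers were called lower, with a summed level of 30092 normalized reads in the control and 19564 in iFIRKO. Of the endothelial markers, 2 of 8 were called lower (10774 and 7923 summed), and all 5 counted leukocyte markers were called lower (1640 and 730.2 summed). The erythroid markers went the other way, with 4 of 4 counted genes called higher (8458 and 17198 summed). Of 7 stellate cell and 5 cholangiocyte markers counted, 0 were called. The part of these cells in the *Scd2* difference was not tested.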

How the data were processed

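Libraries from liver RNA (TruSeq stranded mRNA kit) were sequenced on an Illumina NovaSeq instrument. Values deposited by the authors are log2 normalized read counts by gene symbol, and 0 stands for a scaled count up to 1. The build is mm10 per the submitters' processing notes, and the aligner, counter and annotation are not given in the sources used here. Values were returned to the linear scale, and the minimum was 41.79 normalized reads, standing for 1 CPM, in either library, with a pseudocount of 4.179. Of the rows, 62.2% in the control and 62.1% in the iFIRKO library were at 0. The depths, estimated from the worth of 1 read pair (1.987 and 2.013 normalized reads), allow counting intervals only. Low values were read as whole pairs up to 20 pairs, within 0.01 of a pair. Intervals of ratios of 2 genes use the normal approximation to read-pair counts, covering counting error only. No test was run with 1 library per group. The members and all gene lists were chosen with earlier results of these data known. All 9 members are named. By rule, any relative, cycle partner, electron donor or regulator could also be named, and of other lists genes past 1.5-fold and up to 3 by level and 3 by fold, of which the text names some. A gene of the lists is not reported here, and its list's count and median leave it out. Markers at 0 were named after their values were seen. Positions, transcript lengths and coding sequences came from GENCODE M21, and promoters from RefSeq. Coding sequences were aligned globally. The fold computation was tested on simulated data. Alternatives covered the pseudocount, minimum, scaling, fold, duplicate symbols and transcript length. The tools were Python 3.11.15 with biopython 1.88, scipy 1.17.1, numpy 2.4.6, matplotlib 3.10.9 and pandas 2.3.3.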

Additional observations from a re-analysis of the deposited data

How the results depend on the processing

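Under 10 alternatives to the processing, *Elovl3* and *Elovl6* were called higher each time, and *Scd2* was called lower in all but 1, as a fold of 2 left 0 members lower. The members' median log2 fold change was -0.105 with no minimum, where *Elovl7* enters, and between -0.017 and -0.002 otherwise. Over 15 genes followed, 135 recomputed log2 fold changes held 0 that left their counting interval and 0 of opposite sign, and that of *Elovl3* ran from 2.25 to 2.40 and that of *Scd2* from -0.64 to -0.59. Many of these values could not differ, since changing the minimum or summing duplicate symbols leaves the fold change of such a gene as it was. The other scalings shifted iFIRKO by only 0.0075, -0.0027 and 0.0121 on the log2 scale. The count is therefore no measure of robustness. The numbers of all genes called higher and lower were 371 and 576 with a pseudocount of 1 CPM, 1960 and 2620 with no minimum, 288 and 440 with a minimum of 5 CPM, and 209 and 267 with a fold of 2. Of 196 recomputed list medians 6 moved. Those of the male-biased list (0.726 with a pseudocount of 1 CPM), PPAR-alpha targets (0.329) and adipocyte markers (0.567, both with no minimum) did, the last from -0.14. With a minimum of 5 CPM so did those of other family members (0.282, from -0.14), cycle partners (0.152) and acyl transfer to phospholipid (0.166, from -0.09). The adipocyte median with no minimum rests on *Adipoq* and *Plin1*, at 0 read pairs in the control and 1 in iFIRKO. It is therefore no sign of higher adipocyte markers. *Lpcat4* is left out where the minimum must hold in both libraries. The gain of *Elovl6* among elongases was 7.84 percentage points without length and 5.65 with mean transcript length, beside 4.48, and that of *Elovl3* was 2.40 and 2.42 beside 4.22. The change of *Elovl2* was -7.26 and -3.48 beside -5.61, of *Elovl1* -1.56 and -2.04 beside -2.64 and of *Elovl5* -1.39 and -2.55 beside -0.44. No paired analysis was possible because only 1 library represents a genotype. The minimum and pseudocount act on low genes, and the depth limits *Elovl7*, at 8 and 6 read pairs, among the members.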
